A study of Mus musculus with 6 samples.

Results

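The comparison described here sets fibroblasts at day 14 of induction toward parvalbumin neurons against the same kind of culture at day 7. It was chosen by the labelled day and holds 2 of the 6 arrays of the series, 1 at each time, and it covers 22180 genes. Both samples, like the other 4, came from PV-GFP transgenic C57BL/6 mice, in which green fluorescent protein marks cells that use the parvalbumin gene. The labels name embryos of 13.5 days as the source and adenovirus infection of fibroblasts as the treatment of all 6 samples, and they do not say which gene the virus carried. The day 7 and day 14 cultures (induced parvalbumin cells, iPV) are not labelled as sorted, so each array is taken as an average over the cells of a dish. The other 4 arrays are shown beside them as levels, namely mouse embryonic fibroblasts (MEF), iPV at day 3, GFP-positive iPV sorted at day 14, and an array labelled as endogenous neurons. No group has a second array, so no difference below has a replicate check or a p-value, and each describes these arrays only.

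Fibroblasts in culture divide, build matrix and secrete growth factors, and turning them into neurons requires that they leave the cell cycle and switch on a neuronal programme. Parvalbumin interneurons make the inhibitory transmitter GABA and fire rapidly, which rests on GABA-synthesising enzymes, fast potassium channels and calcium-buffering parvalbumin. Dividing cells make proteins of the mitotic spindle only around division, many of them through a short promoter element called the cell cycle genes homology region (CHR). Sterol synthesis genes are switched together by SREBP proteins when membrane cholesterol is low. Interferon-stimulated genes are switched together through the interferon-stimulated response element (ISRE), as a defence against viruses.

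Between day 7 and day 14, genes of mitosis and of sterol synthesis were lower on the later array, together with a set of secreted growth and patterning factors. A minority of immediate early, interferon-stimulated and p53-target genes were at least 2-fold higher, and none of these lists had a member 2-fold lower. No gene of the GABAergic and parvalbumin lists differed 2-fold. For lists of this size a count of 0 is near the share over all genes, given below. Values are log2 intensities, and values below 5.01, the median of the non-control probe sets and called the floor here, were set to that level. A fold in which 1 side sat at the floor is therefore only a minimum and carries the words "at least". At a log2 difference of 1 or more, which is 2-fold, 134 genes were higher at day 14, or 0.604% of all genes, and 183 were lower, or 0.825%. These shares over all genes are the background for every list count below, also where they are not repeated. In a short list, a count of 0 is near these shares. Over the 13328 genes above the floor on either array they were 1.01% and 1.37%. These are the nearer background for lists with nearly all members above the floor, such as the mitosis, sterol synthesis, imprinted and p53 lists. The median difference of those genes was 0.05. Where a gene had a pair of probe sets, their day 14 minus day 7 differences disagreed with a standard deviation of 0.27 on the log2 scale per probe set, over 358 genes. That technical spread leaves out variation between cultures.

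**Figure D1:**
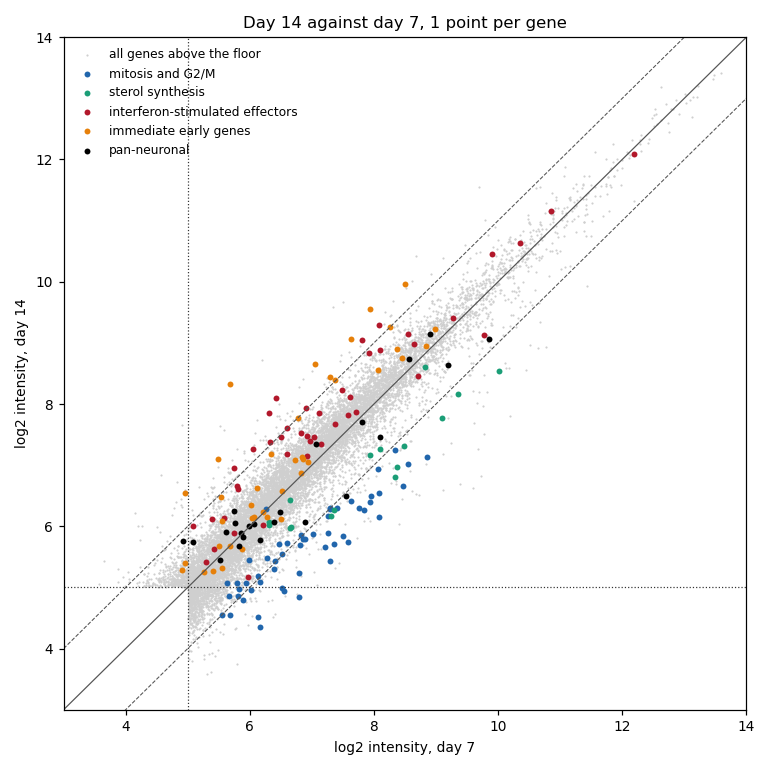
Each point is 1 gene above the floor on either array, with its log2 intensity at day 7 on the x axis and at day 14 on the y axis. Dashed lines mark 2-fold, dotted lines the floor of 5.01, and colours mark 5 gene lists. Most mitosis points lie under the diagonal, most immediate early and interferon points lie on or above it, and the pan-neuronal points lie along it.

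The arrays themselves differed at both ends of the scale. Control probe sets had a median of 4.43 on the day 7 array and 4.25 on the day 14 array, while housekeeping genes had 8.80 and 8.93. The split between higher and lower genes moved with the scaling: 92 higher and 246 lower after centring on housekeeping genes, a share of 27.2% higher against 42.3% as deposited. Centring on each array's median gave 187 higher and 139 lower, a share of 57.4%. These centrings put the median of all genes at -0.06 and 0.14. The part of this offset in any single difference was not tested, and in these bulk samples fewer cells of a type and less RNA per cell cannot be told apart.

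Promoters from the mitosis, interferon, sterol and immediate early lists are shown first, since the factors that switch these lists have known short binding elements. Sequences are RefSeq promoters of build GRCm38.p6, 250 bases before to 50 after a start site, read 5′ to 3′ in the direction of the gene and cut to 100 bases. Motifs were searched on both strands, capitals mark the matches, and a match is a description of letters only. A gene with several listed starts counts once if any of them holds the motif. In the first set capitals mark the CHR, spelled TTTGAA, and the CCAAT box, and the genes shown are 4 of the mitosis genes at least 2-fold lower at day 14 that hold both within the window. Kif23 and Kif11 encode spindle motors, Hmmr a spindle assembly protein and Plk1 a mitotic kinase. The windows are chr9:61946750-61946849, minus strand, for Kif23, chr19:37376316-37376415, plus strand, for Kif11, chr11:40733388-40733487, minus strand, for Hmmr, and chr7:122159385-122159484, plus strand, for Plk1.
Kif23: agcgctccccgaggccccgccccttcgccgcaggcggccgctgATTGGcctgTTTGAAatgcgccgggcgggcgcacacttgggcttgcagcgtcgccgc
Kif11: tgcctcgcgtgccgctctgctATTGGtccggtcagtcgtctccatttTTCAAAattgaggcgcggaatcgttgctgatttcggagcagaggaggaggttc
Hmmr: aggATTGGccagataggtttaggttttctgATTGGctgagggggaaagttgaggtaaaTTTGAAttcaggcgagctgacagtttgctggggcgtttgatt
Plk1: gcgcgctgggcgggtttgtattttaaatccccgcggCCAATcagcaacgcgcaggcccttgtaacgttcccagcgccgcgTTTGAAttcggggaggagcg
A CHR match was present in 35 of the 47 mitosis genes with a promoter in the table, or 74.5%, against 20.2% of all 27025 genes in it. Among the mitosis genes at least 2-fold lower, 24 of 29 held it. Of 32 S phase genes with a promoter, 4 held it, or 12.5%. The E2F site, searched as TTTGGCGC or TTTCCCGC, was found in 9 of these 32 S phase genes, or 28.1%. It was found in 2 of the 47 mitosis genes, or 4.26%. The shares were 1.8% over all genes and 3.28% over genes above the floor.

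In the interferon set capitals mark the ISRE, searched as GAAA repeated after a gap of any 2 bases, and the genes are the 4 at least 2-fold higher at day 14 that hold it. Rsad2 encodes the antiviral enzyme viperin, Ifit1 a protein that binds viral RNA, Irgm1 a GTPase and Ifih1 the RNA sensor MDA5. The windows are chr12:26456518-26456617, minus strand, for Rsad2, chr19:34640740-34640839, plus strand, for Ifit1, chr11:48871396-48871495, minus strand, for Irgm1, and chr2:62646206-62646305, minus strand, for Ifih1.
Rsad2: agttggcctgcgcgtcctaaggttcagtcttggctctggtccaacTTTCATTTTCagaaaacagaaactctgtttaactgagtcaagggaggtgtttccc
Ifit1: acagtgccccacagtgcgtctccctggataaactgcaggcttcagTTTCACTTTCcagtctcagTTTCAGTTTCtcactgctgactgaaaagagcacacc
Irgm1: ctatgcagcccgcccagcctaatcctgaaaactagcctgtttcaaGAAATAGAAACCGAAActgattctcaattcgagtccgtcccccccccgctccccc
Ifih1: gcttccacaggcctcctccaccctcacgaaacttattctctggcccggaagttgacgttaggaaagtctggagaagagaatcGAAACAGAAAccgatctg
Ifit1 holds 2 separate matches, and in Irgm1 2 matches overlap. Of 36 interferon-stimulated effector genes with a promoter, 19 held an ISRE, or 52.8%, against 3.99% of all genes. For sterol genes, capitals mark the sterol response element, spelled TCACNCCAC, and the CCAAT box. Hmgcs1 encodes the enzyme that makes HMG-CoA, and Cyp51 and Nsdhl encode enzymes that remove methyl groups from the sterol ring. Their windows are chr13:119690168-119690267, plus strand, for Hmgcs1, chr5:4104675-4104774, minus strand, for Cyp51, and chrX:72918364-72918463, plus strand, for Nsdhl.
Hmgcs1: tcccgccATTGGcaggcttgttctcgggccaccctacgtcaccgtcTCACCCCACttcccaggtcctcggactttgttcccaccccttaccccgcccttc
Cyp51: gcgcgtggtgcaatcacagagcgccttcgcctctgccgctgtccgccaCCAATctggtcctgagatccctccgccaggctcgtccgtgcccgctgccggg
Nsdhl: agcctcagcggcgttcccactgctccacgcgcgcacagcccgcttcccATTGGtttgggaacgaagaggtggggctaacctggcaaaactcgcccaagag
A CCAAT box was present in 13 of 13 sterol synthesis promoters, against 41.1% of all genes, and the sterol response element in 1, Hmgcs1. For immediate early genes, capitals mark the cyclic AMP response element, spelled TGACGTCA. Of the 32 promoters of the list, 4 held it, or 12.5%, against 2.03% of all genes and 3.37% of genes above the floor. Of the 8 promoters of members at least 2-fold higher, 3 held it, and of the 3 in the cyclic AMP response list that passed 2-fold, 0 did. Dusp1 encodes a phosphatase of MAP kinases, Errfi1 an inhibitor of the EGF receptor and Btg2 an antiproliferative protein. The windows are chr17:26508562-26508661, minus strand, for Dusp1, chr4:150854973-150855072, plus strand, for Errfi1, and chr1:134079268-134079367, minus strand, for Btg2.
Dusp1: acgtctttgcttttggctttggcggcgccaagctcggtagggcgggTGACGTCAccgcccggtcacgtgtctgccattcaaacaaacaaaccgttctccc
Errfi1: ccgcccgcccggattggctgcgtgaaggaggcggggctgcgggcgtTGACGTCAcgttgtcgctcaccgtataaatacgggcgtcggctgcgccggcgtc
Btg2: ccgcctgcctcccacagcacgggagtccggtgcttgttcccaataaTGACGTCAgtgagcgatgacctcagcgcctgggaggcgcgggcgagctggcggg
The CArG box was found in 0 of these 8 promoters and in 3 of 32 over the list, against 1.81% of all genes. The p53 half-site was found in 9 of 20 p53-target promoters, or 45%, against 9.55%, and in 1 of the 5 with a promoter that were at least 2-fold higher, Mdm2.

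Genes of mitosis were lower at day 14, most of all those of the spindle, the kinetochore and the cyclins and kinases. Of 54 members on the array, 53 were above the floor on either array, 34 were at least 2-fold lower and 0 higher, which is 63% against a background of 0.825%. The list median was -1.09, and 52 of the 53 were negative. The kinetochore, which ties chromosomes to the spindle, included Nuf2, with 8.08 at day 7 and 6.15 at day 14, a 3.79-fold difference. Its values elsewhere were 7.99 for MEF, 6.18 for day 3, 6.10 for sorted cells and 6.54 for the array labelled endogenous. So Nuf2 was high in MEF and at day 7 and low on the other 4 arrays. Its partner Ndc80 had 7.29 at day 7 and 5.43 at day 14, with 7.59 for MEF, 6.38 for day 3, 5.90 for sorted cells and 6.34 for the array labelled endogenous. Knl1, a scaffold protein of the kinetochore that was in no list, had 7.09 and 5.05 and was 4.11-fold lower. Kinetochore and chromatin genes had 9 of 14 members at least 2-fold lower, Top2a, a DNA topoisomerase, among them at -1.81.

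The spindle group held the largest share, with 16 of 21 at least 2-fold lower. Kif23, a motor of the midbody, went from 6.80 to 4.84, at least 3.45-fold. Kif11, the motor that separates the poles, had 7.36 and 5.71, and 5.87 in sorted cells. Prc1, which bundles the central spindle, differed by -1.45 and Ect2, which starts cytokinesis, by -1.54. Among cyclins and kinases 8 of 12 were at least 2-fold lower. Ccna2, a cyclin of S phase and G2, had 7.91 for MEF, 6.41 for day 3, 8.55 for day 7, 7.02 for day 14, 7.25 for sorted cells and 7.34 for the array labelled endogenous. Plk1 differed by -1.45 and Pbk, a mitotic kinase, by -1.84. Bub1, a checkpoint kinase, was at least 2.89-fold lower. Aurkb, another mitotic kinase, lay just outside the threshold at -0.999. Among anaphase genes 1 of 5 passed, Cdc20, an activator of the anaphase-promoting complex, with 6.89 and 5.79, and all 5 were negative. Of the transcription factors of this programme 0 of 2 passed. Foxm1 differed by -0.87, with 6.60 and 5.73, while Mybl2 had 6.26 and 6.28.

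DNA replication and S phase genes were lower too, by less. Of 37 members on the array, 34 were above the floor and 32 of those were negative, with a median of -0.66. At least 2-fold lower were 3 of the 37, or 8.11% against 0.825%. These were Tk1, the thymidine kinase, at -1.12, Rrm2, a subunit of ribonucleotide reductase, at -1.05, and Pole, a replicative polymerase, at -1.05. The group of helicase loading genes had 0 of 13 at 2-fold and a median of -0.58, with Mcm3 at -0.80 and Mcm6 at -0.78. Pcna, the polymerase clamp, had 8.32 at day 7 and 7.56 at day 14. E2f1, an activator of S phase genes, had 6.80 and 6.85. Of 13 listed histone genes made at replication, 5 were on the array and 2 above the floor, H2ac20 at least 2.42-fold lower and H2bc3 at least 1.91-fold. H2ac10, a histone gene outside the list and among the largest decreases, had 9.62 and 7.69 and was 3.82-fold lower. All 3 belong to a family of near-identical copies that probe sets may not tell apart.

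Inhibitors of the cell cycle had no common direction, with a median of 0.19 over 15 members, 1 at least 2-fold higher and 1 lower. The higher gene was Btg2, 2.24-fold, with 7.29 at day 7 and 8.45 at day 14. Cdkn1a, the main p53-driven inhibitor, had 10.48 at day 7 and 11.09 at day 14, a difference of 0.61. Rb1, the retinoblastoma protein gene, had 7.94 and 8.74. Cdkn1c, an imprinted inhibitor, was 2.85-fold lower, with 7.77 and 6.26, and Cdkn2c was lower by 0.91. Cdkn2a and Cdkn2b, inhibitors linked to senescence, differed by 0.24 and 0.19, each less than the technical spread of a gene.

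**Figure D2:**
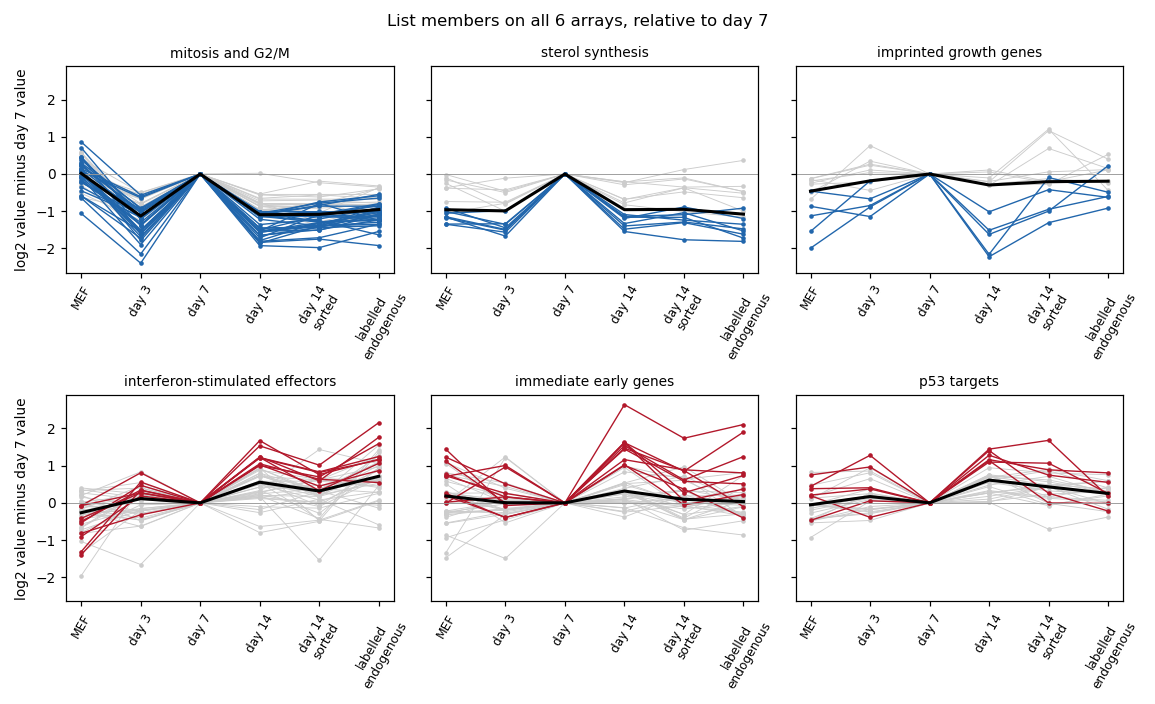
The y axis is the log2 value of each member minus its own value at day 7, with values under the floor raised to it, and the x axis lists the 6 arrays. Thin lines are members above the floor at day 7 or day 14, coloured where day 14 differed at least 2-fold in the list's direction, and the black line is their median. The mitosis median is near 0 in MEF and near -1 on the other arrays besides day 7, the sterol median is near -1 on every array other than day 7, and the medians of the lower row are highest at day 14 or, for interferon effectors, on the array labelled endogenous.

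Sterol synthesis genes were lower at day 14, most of all in the steps from squalene on. Of 16 members on the array, 8 were at least 2-fold lower and 0 higher, or 50% against 0.825%, and all 16 were negative, with a median of -0.96. In the early mevalonate steps 1 of 5 passed 2-fold, Hmgcs1, which had 9.11 for MEF, 8.57 for day 3, 10.02 for day 7, 8.54 for day 14, 8.71 for sorted cells and 8.40 for the array labelled endogenous. Day 7 stood above the other 5 arrays for Hmgcs1, and the same held for all 8 genes that passed 2-fold. Fdps, which makes farnesyl diphosphate, differed by -0.83, and Mvk, the mevalonate kinase, by -0.21. The steps from squalene on had 7 of 11 members at least 2-fold lower. Cyp51 had 8.35 and 6.80, Sqle, the squalene epoxidase, 8.37 and 6.97, and Nsdhl 9.10 and 7.76. Fdft1, which makes squalene, was 2.29-fold lower, Msmo1 2.24-fold, Hsd17b7 2.20-fold and Lss, the cyclase that forms lanosterol, 2.13-fold. The differences were smaller for Ebp at -0.23 and Sc5d at -0.21.

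Among 8 genes of sterol uptake and control, 1 passed 2-fold. Insig1, which holds SREBP in the endoplasmic reticulum and is itself an SREBP target, was 3.07-fold lower, with 9.81 at day 7, 8.19 at day 14 and between 7.76 and 8.28 on the other arrays. Srebf2, the regulator of sterol genes, had 8.77 and 8.05, a difference of -0.72, while Srebf1, its partner for fatty acids, had 6.47 and 6.38. Scap, the escort of SREBP, and Npc1, a cholesterol transporter of lysosomes, differed by -0.05 and -0.02. Fatty acid synthesis had 2 of 17 members at least 2-fold lower, or 11.8% against 0.825%, and its median was -0.29. The 2 were the elongase Elovl6 at -1.16 and the desaturase Fads2 at -1.02. Scd1, another desaturase, had 10.52 and 9.67, and Fasn, the fatty acid synthase, 8.28 and 7.49. Genes of sterol export had 0 of 6 at 2-fold and a median of -0.16.

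Several of the genes furthest lower at day 14 encode secreted or surface proteins, beside the mitosis and histone genes given above. Tgfbi, a matrix protein induced by TGF-beta, had 9.81 for MEF, 7.84 for day 3, 9.59 for day 7, 6.63 for day 14, 8.22 for sorted cells and 8.28 for the array labelled endogenous. It was 7.82-fold lower at day 14 than at day 7, and day 14 was the lowest of the 6 arrays. Pi15, a secreted peptidase inhibitor, had 6.52 for MEF, 8.88 for day 3, 9.73 for day 7, 6.83 for day 14, 8.87 for sorted cells and 9.60 for the array labelled endogenous. Agtr2, an angiotensin receptor, had 5.98, 8.64, 9.39, 6.69, 7.74 and 9.82 in the same order. MEF and day 14 were the lowest arrays for both genes, and the sorted cells of the same day lay above unsorted day 14 cells. Mme, the surface peptidase neprilysin, was 5.13-fold lower, with 8.40 and 6.04, and Apln, the peptide apelin, 4.15-fold, with 7.37 and 5.32.

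Growth factor genes leaned lower, with 5 of 49 on the array at least 2-fold lower, or 10.2% against 0.825%, and 0 higher. Of 46 above the floor, 34 were negative, and the median was -0.33. Ptn, the neurite-promoting factor pleiotrophin, had 10.65 for MEF, 9.29 for day 3, 9.12 for day 7, 6.59 for day 14, 8.15 for sorted cells and 8.65 for the array labelled endogenous, so day 14 was the lowest array by over 1 log2 unit. In the IGF axis 11 of 12 were negative. Igfbp4, an IGF-binding protein, was 5.27-fold lower, with 10.20 and 7.80, Igf2 2.02-fold lower, and Igf1, Igfbp2 and Igfbp5 differed by -0.81, -0.84 and -0.81. Hgf, a ligand of Met, had 7.61 and 6.54, and Vegfd, a lymphatic growth factor, 8.86 and 7.78. Members with positive values included ligands of the EGF receptor, Hbegf at 0.84 and Ereg at 0.78. Outside this list, Pgf, a placental growth factor of the VEGF family, was 4.36-fold higher, with 5.52 at day 7 and 7.64 at day 14, while sorted cells had 7.43 and MEF 4.84.

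In TGF-beta and BMP signalling, 3 of 35 were at least 2-fold lower, or 8.57% against 0.825%. Higher was 1, or 2.86% against 0.604%. The median was -0.06, which turned to 0.03 after centring on array medians. Gdf10, a ligand of the BMP family, was 5.27-fold lower, with 9.67 and 7.27. The antagonists Grem1, with 8.46 and 6.45, and Fst, with 8.59 and 6.90, were also lower. Ccn2, a matricellular target of TGF-beta, was 2.21-fold higher, and Id1, a target of BMP, and Smad7, an inhibitor of the pathway, differed by 0.95 and 0.81. In Wnt signalling, 4 of 34 were at least 2-fold lower, or 11.8% against 0.825%, and 0 higher. Sfrp2, a secreted antagonist, had 9.27 for MEF, 7.22 for day 3, 9.77 for day 7, 7.51 for day 14, 7.23 for sorted cells and 10.47 for the array labelled endogenous. Lgr5, a receptor of R-spondins, had 7.44 and 5.41, Fzd1, a Wnt receptor, 8.24 and 7.04, and Sfrp4 was at least 2.09-fold lower.

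Imprinted genes, which are read from the copy of a single parent and many of which act on fetal growth, had 5 of 13 members at least 2-fold lower and 0 higher, or 38.5% against 0.825%. Dlk1, a Notch-like surface protein of precursor cells, had 6.74 for MEF, 7.85 for day 3, 8.73 for day 7, 6.51 for day 14, 7.42 for sorted cells and 7.81 for the array labelled endogenous. Mest had 7.56, 7.84, 8.69, 6.53, 8.59 and 8.19 in the same order, so sorted cells stayed at the day 7 level while the unsorted day 14 array was the lowest. Plagl1, a zinc finger regulator, was 3.08-fold lower, and Cdkn1c and Igf2 have been given above. The other 8 members lay between -0.31 for Peg3 and 0.11 for Ndn.

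**Figure D3:**
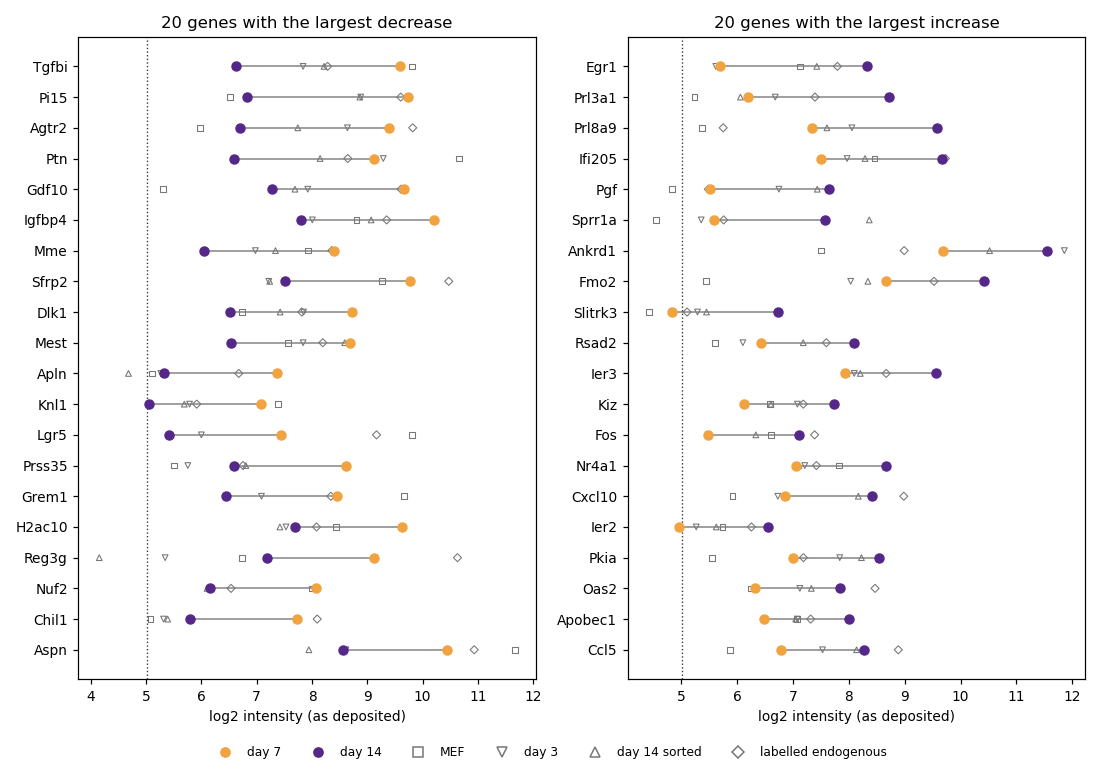
The x axis is the deposited log2 intensity and each row is a gene, 20 with the largest decrease on the left and 20 with the largest increase on the right, ordered by size. Predicted and numbered genes are left out, among them 9930111J21Rik2, the largest increase of all genes at 2.65, or at least 6.29-fold. Filled circles are day 7 and day 14, open symbols the other 4 arrays, and the dotted line is the floor of 5.01. On the left, the open diamonds of the array labelled endogenous lie above day 7 for Agtr2, Sfrp2, Lgr5, Reg3g, Chil1 and Aspn, and below it for the rest.

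Matrix genes went different ways. Of 22 collagen genes, 0 passed 2-fold in either direction, and the median was -0.14, with 15 of 21 above the floor negative. Col1a1, the main chain of type I collagen, had 12.28 at day 7 and 12.25 at day 14. Among elastic and matricellular genes, 5 of 32 were at least 2-fold lower, or 15.6% against 0.825%, namely Tgfbi, Aspn, Vcan, Ccdc80 and Eln. Higher was 1, or 3.12% against 0.604%, Mfap5, with 7.58 and 8.58. Aspn, a small leucine-rich proteoglycan, had 10.44 and 8.56, and Vcan, the proteoglycan versican, 10.12 and 8.59. Of 19 fibroblast identity genes, 1 was at least 2-fold lower, Meox2, a homeobox gene, at least 2.21-fold, and none was 2-fold higher, with 6 of the 18 above the floor positive and 12 negative. Twist2, a regulator of mesenchyme, had 5.91 and 6.77. Vim, an intermediate filament gene of mesenchyme, had 11.37 and 11.61, Thy1 9.19 and 8.64, and Pdgfra, a receptor of PDGF, 11.07 and 10.24. Of 16 smooth muscle genes, Actg2, a smooth muscle actin, was 2.08-fold lower, and Ankrd1, a muscle stress protein, was 3.63-fold higher, with 9.69 and 11.55.

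Immediate early genes, which respond within minutes to growth factors, stress or electrical activity, leaned higher at day 14, a minority of them by 2-fold. Of 42 members on the array, 10 were at least 2-fold higher and 0 lower, or 23.8% against 0.604%. Of 40 above the floor, 33 were positive and 7 negative, with a median of 0.32. Under other settings that median ranged from 0.18 to 0.525. The low end is less than the technical spread of 0.27, which holds for a single probe set and is not the error of a list median. Egr1, a zinc finger activator, had 7.13 for MEF, 5.62 for day 3, 5.69 for day 7, 8.33 for day 14, 7.43 for sorted cells and 7.79 for the array labelled endogenous. It was 6.23-fold higher than at day 7, and days 3 and 7 were the lowest of the 6 arrays. Fos, a subunit of AP-1, had 6.60, 5.48, 5.48, 7.10, 6.33 and 7.39 in that order. Nr4a1, an orphan nuclear receptor, had 7.05 and 8.66, and 7.10 in sorted cells, so the sorted cells of the same day were at the day 7 level.

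By class, 3 of 10 KLF and IER genes, 2 of 8 AP-1 genes, 2 of 7 EGR and NR4A genes and 2 of 8 feedback genes passed 2-fold. Ier3, a survival factor, was 3.09-fold higher and Ier2 at least 2.90-fold. Dusp1 had 7.62 at day 7 and 9.07 at day 14, Errfi1 8.50 and 9.97, and Btg2 7.29 and 8.45. Of 9 genes tied to neuronal activity 1 passed, Ptgs2, a prostaglandin synthase, at 1.01, and the median of the 8 above the floor was 0.10. Of 16 cyclic AMP response genes, Fos and Nr4a1 were at least 2-fold higher and Pde10a, a phosphodiesterase, 2.05-fold lower, with a median of -0.04. Sik1, a kinase gene switched by CREB, had 7.97 and 8.79, and Per1, a clock gene, 8.31 and 9.19.

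Interferon-stimulated effector genes had 9 of 49 members at least 2-fold higher and 0 lower, or 18.4% against 0.604%. Of 44 above the floor, 39 were positive, and the median was 0.56. Rsad2 had 5.61 for MEF, 6.10 for day 3, 6.42 for day 7, 8.10 for day 14, 7.18 for sorted cells and 7.60 for the array labelled endogenous, a 3.19-fold difference between day 14 and day 7. Oas2, which activates an RNA-cutting enzyme, had 6.24, 7.12, 6.31, 7.85, 7.33 and 8.47. Both were highest at day 14 or on the array labelled endogenous. Among the RNA-binding group 10 of 10 were positive, with Ifit1 at 1.24 and Oasl1 at 1.05. Usp18, which removes the ubiquitin-like tag ISG15, was 2.32-fold higher, and Isg15 itself had 7.91 and 8.84. Irgm1 was 2.33-fold higher and Cmpk2, a nucleotide kinase, 2.31-fold. Mx2, of a family of dynamin-like GTPases but annotated in RefSeq as a transcribed pseudogene, had 6.60 and 7.61. The Ifitm genes, which block viral entry, went the other way, Ifitm1 at -0.80 and Ifitm2 at -0.64.

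The sensing and signalling genes upstream moved less, with 2 of 19 at least 2-fold higher and a median of 0.15. These were Ifih1, with 7.64 and 8.78, and Irf7, a regulator that amplifies interferon, with 8.17 and 9.31. Stat2 had 8.57 and 8.51, Irf9, its DNA-binding partner, 7.90 and 8.18, and Irf1 5.89 and 5.68. Ifnb1, which encodes interferon beta, did not reach the floor on any of the 6 arrays, with a highest value of 3.66. MHC class I genes, which present peptides to T cells, had 0 of 14 at 2-fold and a median of 0.25, with H2-K1 at 0.75 and Tapbp at 0.70. Ifi205, an interferon-inducible gene of a family of close copies that probe sets may not tell apart, had 7.51 and 9.66.

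Chemokine and cytokine genes went both ways, since 3 of 25 passed 2-fold upward and 3 downward. Each is 12%, against 0.604% higher and 0.825% lower over all genes. Cxcl10, with 6.86 and 8.41, and Ccl5, with 6.79 and 8.27, are chemokines induced by interferon, and Il6, an inflammatory cytokine, had 7.84 and 8.86. Lower were Cxcl14, with 10.77 and 8.94, Cxcl5, with 11.44 and 9.93, and Il33, with 7.51 and 6.50. For these 3 lower genes the array labelled endogenous was on the side of day 7, with 10.39, 11.24 and 8.06. In the NF-kB list, 1 of 11 passed 2-fold, Tnfaip3, a feedback inhibitor, at 1.27, while Sod2 had 11.02 and 10.21. Acute phase and complement genes had a median of -0.52 with 11 of 11 above the floor negative and 1 of 12 at least 2-fold lower, Serpina3n, with 10.67 and 9.34.

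Targets of p53, the regulator of arrest and death after DNA damage, leaned higher. All 27 members on the array were above the floor and 27 differences were above 0, with a median of 0.61. The smallest was 0.02, while the housekeeping list had a median of 0.13, so the smallest lie within the offset between the arrays. Of the 27 members, 6 were at least 2-fold higher, or 22.2% against 0.604%. Mdm2, the ligase that degrades p53, had 9.32 for MEF, 9.49 for day 3, 9.11 for day 7, 10.39 for day 14, 9.86 for sorted cells and 9.66 for the array labelled endogenous. Perp, a membrane protein of cell death and adhesion, had 6.52, 7.35, 6.08, 7.52, 7.76 and 6.25. Day 7 was the lowest of the 6 arrays for both genes. Arrest genes included Plk2, with 8.61 and 10.01, Plk3, with 5.97 and 7.07, and Btg2, which is also in the immediate early list. Ddit4, an inhibitor of mTOR signalling, was 2.20-fold higher. In the cell death group Pmaip1 and Eda2r differed by 0.75 and 0.76 and stayed under 2-fold. Stress genes of the ATF4 programme had 1 of 19 at 2-fold, again Ddit4, and a median of 0.35, and chaperones of the endoplasmic reticulum 0 of 9 and 0.16.

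**Figure D4:**
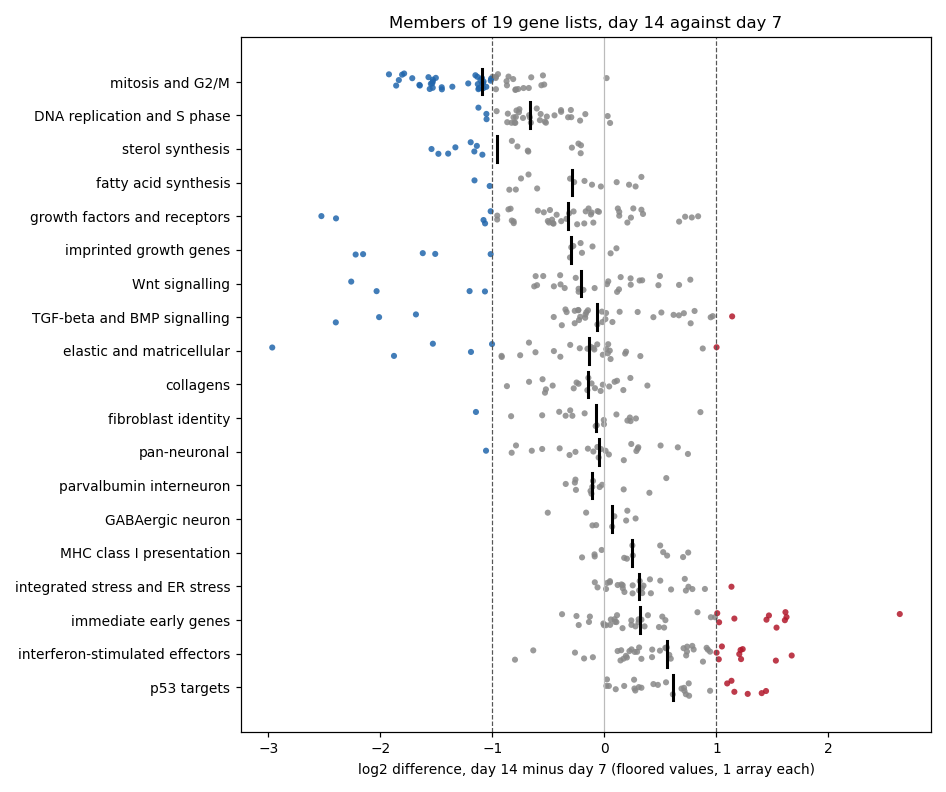
Each dot is a member above the floor at day 7 or day 14, placed by its floored log2 difference, day 14 minus day 7, on the x axis, with 1 row per gene list. Dashed lines mark 2-fold, blue dots are at least 2-fold lower, red dots at least 2-fold higher, and black bars are list medians. Of the 19 lists plotted, mitosis has the lowest median, -1.09, and p53 targets the highest, 0.61, while the medians of the GABAergic, parvalbumin and pan-neuronal lists are 0.07, -0.11 and -0.05.

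Several of the genes furthest higher belong to no stress list. Prl3a1 and Prl8a9 are prolactin family genes of the placenta. Of 17 family members on the array, 2 passed 2-fold, or 11.8% against 0.604%, and 3 were above the floor. Prl3a1 had 5.24 for MEF, 6.68 for day 3, 6.19 for day 7, 8.73 for day 14, 6.06 for sorted cells and 7.39 for the array labelled endogenous, a 5.79-fold difference. Prl8a9 had 5.37, 8.05, 7.34, 9.58, 7.61 and 5.75. Unsorted day 14 cells had the highest level of both, and the sorted cells of that day were close to day 7. Sprr1a, an envelope protein also known from injured neurons, had 5.59 at day 7, 7.58 at day 14 and, in sorted cells, 8.37. Fmo2, a flavin monooxygenase, had 8.67 and 10.42. Slitrk3, a synaptic adhesion protein, was at least 3.28-fold higher, with 4.83 and 6.72, and Pkia, an inhibitor of protein kinase A, 2.89-fold, with 7.01 and 8.54.

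No gene of the GABAergic and parvalbumin lists differed 2-fold between the arrays. Over all genes 0.604% were higher and 0.825% lower, so counts of 0 in these lists are near the background. Of 15 GABAergic genes on the array, 0 passed in either direction. Under the floor on both arrays were 6, and such genes could not pass. Gad1, a GABA-synthesising enzyme, had 5.12 at day 7 and 4.93 at day 14, and Gad2, the other, 4.62 and 4.61. Slc32a1, the vesicular GABA transporter, had 4.91 and 5.21, and Abat, which breaks GABA down, 7.26 and 7.10. Lhx6, a regulator of interneurons from the medial ganglionic eminence, had 5.88 and 6.16, and Dlx2, a regulator of the same lineage, 5.76 and 5.68. Of 23 parvalbumin interneuron genes, 0 passed and 10 were under the floor on both arrays, the potassium channel genes Kcnc1 and Kcnc2 among them. Pvalb itself had 5.23 for MEF, 5.76 for day 3, 6.15 for day 7, 5.80 for day 14, 6.29 for sorted cells and 5.48 for the array labelled endogenous. Day 14 was thus lower than day 7 by little more than the technical spread. The largest of the list was Hapln4, a link protein of perineuronal nets, at 0.55, with 5.50 and 6.05.

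Of 29 pan-neuronal genes, 0 were at least 2-fold higher and 1 was lower, Tubb4a, a tubulin, with 7.55 and 6.50 and with 8.02 in sorted cells. Tubb3, a neuronal tubulin, had 6.17 and 5.77, Map2, a dendritic protein, 6.38 and 6.07. The neurofilament genes Nefl, with 4.93 and 5.76, and Nefm, with 5.08 and 5.74, and Rbfox3, which encodes the nuclear marker NeuN, with 5.76 and 6.06, went the other way. Over the list 10 members were positive and 13 negative. Dcx, a protein of migrating neurons, was under the floor on all 6 arrays. Snap25, a protein of synaptic vesicle fusion, had 4.44 for MEF, 6.00 for day 3, 6.44 for day 7, 6.90 for day 14, 8.05 for sorted cells and 6.53 for the array labelled endogenous. Snap25 was thus ordered by time over the unsorted arrays, in steps of which the last, 0.46, was under 2-fold. The summed log2 level above the floor of the pan-neuronal list was 40.1 at day 7 and 38.1 at day 14, against 51.0 in sorted cells. MEF had 37.8, day 3 had 37.9, and the array labelled endogenous had 35.0, the lowest of the 6. That last array had Col1a1 at 12.34 and Pdgfra at 11.44, close to MEF with 12.31 and 11.57, and Gad2 at 4.09, under the floor. Synaptic vesicle genes had 0 of 22 at 2-fold, ion channels 0 of 33, transmitter receptors 0 of 17 and proneural regulators 0 of 19. In that order 16, 22, 8 and 12 were above the floor on either array, and the others could not pass. These zeros are near the shares over all genes, 0.604% higher and 0.825% lower. Among genes of other interneuron classes 1 of 14 passed, Calb2, which encodes the calcium-binding protein calretinin, with 2.44 for MEF, 8.09 for day 3, 8.28 for day 7, 9.45 for day 14, 9.88 for sorted cells and 8.67 for the array labelled endogenous. Of the 7 members of that list above the floor 3 were positive and 4 negative, with a median of -0.11. Cck, a neuropeptide gene, had 8.71 and 9.61, and Htr3a, a serotonin receptor, 6.23 and 5.45. In axon guidance, Sema3e, a repellent ligand, was 2.51-fold higher, with 8.17 and 9.50, and Nrp2, a semaphorin receptor, 3.50-fold lower, with 8.84 and 7.03.

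**Figure D5:**
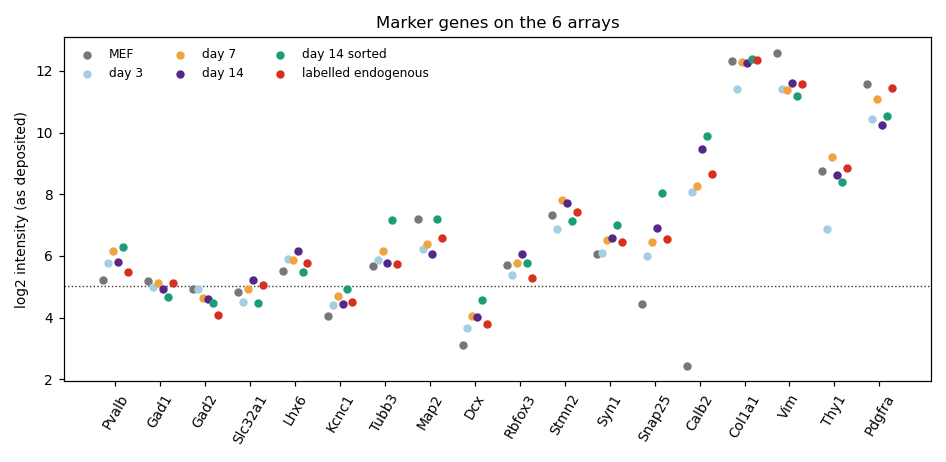
The y axis is the deposited log2 intensity of 18 marker genes on the x axis, with 1 coloured point per array and a dotted line at the floor of 5.01. Gad1, Gad2, Slc32a1 and Kcnc1 lie near or under the floor at day 7 and day 14, while the fibroblast genes Col1a1 and Vim lie above 11 on both.

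Markers of other cell types were checked on the same arrays. Macrophage genes had 1 of 20 at 2-fold, Ctss, a lysosomal protease, at least 2.46-fold higher, and a summed log2 level above the floor of 12.7 at day 7 and 13.7 at day 14, with 25.4 in MEF and 4.13 in sorted cells. Of the defining macrophage markers, Ptprc was under the floor at day 7 and day 14, Cd14 had 6.39 and 5.68, and Lyz2 7.99 and 8.06. Lyz2 had 10.05 on the array labelled endogenous. Of 12 endothelial genes 4 were above the floor and all 4 were positive, with a median of 0.38. Pecam1 was under the floor on both arrays, Kdr had 5.29 and 5.71, and Flt1 6.25 and 6.77. Of 11 astrocyte genes 7 were above the floor and 6 of these were negative, with a median of -0.30. Gfap and Aqp4 were under the floor on both arrays, Slc1a3 had 6.68 and 5.95, and Gja1, a gap junction gene that fibroblasts also use, 8.80 and 7.93. Among epithelial genes Epcam and Krt14 were under the floor and Krt19, a keratin, had 5.15 and 6.02. Among adipocyte genes Adipoq was under the floor and Fabp4, a fatty acid carrier, had 9.81 and 10.30. The part of such cells in the interferon and chemokine values was not tested.

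The other 4 arrays placed the lists differently between the day 7 and day 14 levels. Among the 34 mitosis genes at least 2-fold lower at day 14, sorted cells lay nearer the day 14 value in 33, day 3 in 32, the array labelled endogenous in 32 and MEF in 1. Among the 8 sterol genes all 4 arrays lay nearer day 14 in 8 of 8, and day 7 was the highest of the 6 arrays in all 8. For 27 lower genes of the secreted, matrix, growth factor and imprinted lists, grouped after their values were seen, the array labelled endogenous lay nearer day 7 in 26, sorted cells in 11 and MEF in 14. Among the 9 interferon effectors higher at day 14, the array labelled endogenous lay nearer day 14 in 9, sorted cells in 5 and MEF in 0. Over all genes that passed, sorted cells lay nearer the day 14 value in 131 of 183 lower and 69 of 134 higher genes. Since the genes were chosen on the day 7 and day 14 arrays, these counts describe the levels and test nothing.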

How the data were processed

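Total RNA of 6 samples was hybridised to Affymetrix arrays, starting from 6 µg, 1 array per sample, and this report compares 2 of them. The authors deposited 1 table of log2 intensities, read as log2 from the values themselves. The submitters' processing notes name Affymetrix Expression Console. Its version, the way probes were summarised and the build it used were not given in the sources used here. The number of arrays limits the precision.

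Of 41345 probe sets, 5333 numbered below the first annotated one were taken as controls and left out. Platform annotation gave 1 symbol for 23521 probe sets, several for 1814 and none for 10677, and 23328 of the Entrez identifiers were found in RefSeq GRCm38.p6, used for names. For 22180 genes the probe set of highest mean across all 6 arrays was kept, values were floored at 5.01, and differences are day 14 minus day 7, called at 2-fold. With 1 array per group no test was run. List counts are over members on the array, list medians over members above the floor on either array. The members and the 55 gene lists were chosen with earlier results of these data known. Named genes were the 30 largest differences in each direction (predicted and numbered genes left out, probe sets in 1 direction), up to 8 per list, members of the GABAergic, parvalbumin, sterol and interferon lists and preset cell type markers, of which the text gives a selection. Mcm6, Pcna, E2f1 and Cdkn2a were named after their values were seen. So were other genes outside that rule. They include Mcm3, Plk1, Prc1, Ect2, Ccna2, Bub1, Cdc20, Hmmr, Aurkb, Foxm1, Mybl2 and Cdkn2b. Igf1, Igfbp2, Igfbp5, Hbegf, Ereg, Pmaip1, Ptgs2 and Ndn are also among them. Alternatives were quantile normalization, housekeeping and median centring, the mean of probe sets, the brightest probe set on the compared pair, other floors, and 1.5-fold and 4-fold thresholds. Python 3.11.15, numpy 2.4.6 and pandas 2.3.3 were used, and the counting was tested on simulated data.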

Additional observations from a re-analysis of the deposited data

How the results depend on the processing

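The counts of 134 higher and 183 lower genes moved by more than 1.5 times under 4 settings. They were 264 and 296 without flooring, 61 and 88 when flooring at percentile 75, 6 and 15 at 4-fold, and 748 and 643 at 1.5-fold, where the majority turned to higher genes with 53.8%. After quantile normalization they were 119 and 204, a share of 36.8% higher. No paired analysis was possible because each group has 1 array. Leaving out a replicate was not possible for the same reason. Of 119 named genes at 2-fold, 119 kept their direction under each setting other than the floor at percentile 75, under which 110 did and the rest lay at the floor. The number still at 2-fold was 107 after median centring, 112 after housekeeping centring, 113 after quantile normalization, 114 with the mean of probe sets and 82 with the higher floor. Of 55 list medians, 15 turned sign under at least 1 of 8 alternatives, GABAergic neuron, pan-neuronal and synaptic vesicle lists among them. The 1 alternative added after the data were seen chose members by their mean over the 6 arrays. The histone list had no median under the higher floor. The mitosis median ranged from -1.21 to -0.80, sterol synthesis from -1.08 to -0.80, p53 targets from 0.49 to 0.71 and interferon effectors from 0.43 to 0.65. Genes near the floor have only a bound, 12 of the higher and 19 of the lower genes.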
